A study of Saccharomyces cerevisiae with 3 samples.

Results

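The lower part of glycolysis is the run of reactions that turns triose phosphates into pyruvate, and 10 budding yeast genes of these steps are described here. They are TPI1, the glyceraldehyde phosphate dehydrogenase genes TDH1, TDH2 and TDH3, PGK1, GPM1, the enolase genes ENO1 and ENO2, and the pyruvate kinase genes CDC19 and PYK2. They were grouped by the reaction that their enzymes catalyse and leave out the mutase paralogues GPM2 and GPM3. All 10 were found among the 4069 named genes of the array, with 70 of its 45220 spots. Wild-type cells of BY4741, a haploid laboratory strain whose his3, leu2, met15 and ura3 alleles every sample carries, were grown in 3 separate cultures. The cells reached mid-log phase at 30 °C in YPD, a rich glucose medium, and were then either left untreated or exposed to 0.4 M NaCl for 15 minutes, a hyperosmotic shock. RNA of both conditions of a culture was hybridized to 1 two-colour array, with untreated RNA in Cy5 and RNA from NaCl in Cy3 on all 3 arrays, so that a dye effect particular to a gene and an effect of NaCl cannot be told apart.

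As background, glycolysis splits a hexose into a pair of triose phosphates, and the lower reactions oxidize them and return ATP at the steps of phosphoglycerate kinase and pyruvate kinase. The mRNAs of these enzymes are among the most abundant of yeast growing on glucose, and their promoters are classical targets of Gcr1 and Rap1. In osmostress, dihydroxyacetone phosphate, a substrate of triose phosphate isomerase, is also drawn off to make glycerol, the solute with which yeast balances external salt. ENO1 was used by the study as the loading control of its northern blots.

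Each value below is a log2 ratio of NaCl over untreated cells, averaged over the spots of a gene on an array, so it gives a change and not a level of mRNA. Values above 0 are higher in NaCl. All 7 genes of a list of textbook osmostress genes rose, from GPD1 at 4.18 to the glycerol importer gene STL1 at 8.04 (263-fold). Of all genes, 26.9% rose. The list was drawn up with earlier results of these data known, so it describes the response and is no independent check of it. The median over all genes lay at -0.0010, -0.013 and -0.023 on arrays 1, 2 and 3, so ratios are relative to the bulk of transcripts, and neither a general change in mRNA nor one in cell number would be visible. Across genes, the arrays correlated with Pearson r of 0.93 (arrays 1 and 2), 0.89 (arrays 1 and 3) and 0.97 (arrays 2 and 3), as a description, since genes are not independent replicates. Spot brightness was not analysed here, and the precision rests on the number of arrays.

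Most mRNAs of lower glycolysis were higher in NaCl. Of the 10 genes, 9 rose and 0 fell (limma, adjusted p under 0.05), with mean changes between 1.46-fold for TDH1 and 2.27-fold for TDH3 among those that rose; PYK2, at 1.17-fold, did not pass the test. Of all 4069 genes, 26.9% rose and 27.9% fell by the same test. All 10 genes were above 0 on every array, which held for 35.3% of all genes. The median over the 10 genes was 0.80, 0.90 and 0.79 on arrays 1, 2 and 3, and the median of their means was 0.84 (1.78-fold). A mean change of over 1.5-fold was reached by 7 of the 10 genes (all but TDH1, TDH2 and PYK2) against 14.1% of all genes, and the changes stayed far below those of the osmostress genes above.

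**Figure D1:**
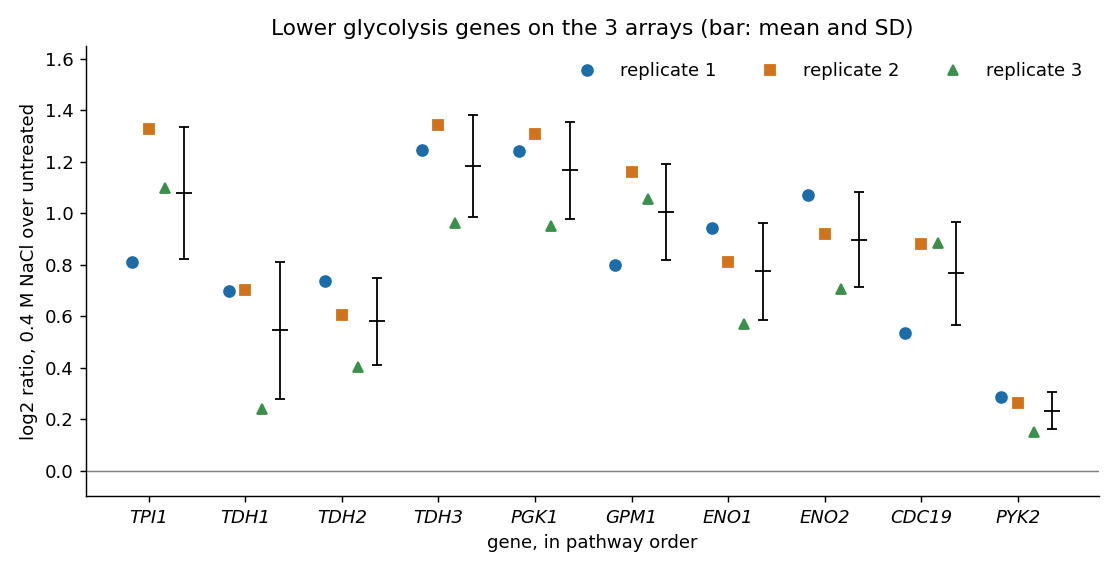
Log2 ratio of NaCl over untreated cells for the 10 lower glycolysis genes, in the order of the pathway; points are the 3 arrays and bars the mean with SD over arrays (n = 3). All 30 points lie above 0, TDH3 and PGK1 have the highest means (1.18 and 1.17) and PYK2 the lowest (0.23).

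TPI1 encodes triose phosphate isomerase, which interconverts dihydroxyacetone phosphate and glyceraldehyde phosphate at the entry of the lower pathway. Its log2 ratio was 0.81, 1.33 and 1.10 on arrays 1, 2 and 3. The mean of 1.08 ± 0.26 (SD, n = 3) is a 2.11-fold rise (limma adjusted p = 0.000158). Every array was well above 0, although the lowest and the highest differed more for TPI1 than for most of the other genes of the pathway.

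The next step, oxidation of glyceraldehyde phosphate, is shared by 3 dehydrogenase isozymes, of which Tdh3 is known for the largest part of the activity in growing cells and Tdh1 for its appearance towards stationary phase. TDH3 gave 1.25, 1.34 and 0.96, a mean of 1.18 ± 0.20 (SD, n = 3). This was the highest mean of the 10 genes, a 2.27-fold rise with a 95% interval of 1.91 to 2.70 (limma adjusted p = 5.93e-05). TDH2 gave 0.74, 0.60 and 0.40, a mean of 0.58 ± 0.17 (SD, n = 3) and a 1.49-fold rise (limma adjusted p = 0.00197). TDH1 gave 0.70, 0.70 and 0.24, a mean of 0.55 ± 0.27 (SD, n = 3) and a 1.46-fold rise (limma adjusted p = 0.00557). On every array both TDH1 and TDH2 lay below the lowest of the TDH3 values, so these groups of values did not overlap. Against a fold of 1.2 in place of no change, TDH1 was the only one of the 9 risen genes to lose its call (limma treat, adjusted p = 0.0727).

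PGK1 encodes phosphoglycerate kinase, the first of the ATP-forming steps, and is present in 1 copy. Its log2 ratio of 1.24, 1.31 and 0.95 was close to that of TDH3 on each array, with a mean of 1.17 ± 0.19 (SD, n = 3) and a 2.24-fold rise (limma adjusted p = 5.94e-05). TDH3 exceeded PGK1 by 0.017 ± 0.016 (SD over arrays). GPM1, which encodes the phosphoglycerate mutase of the pathway, gave 0.80, 1.16 and 1.06, a mean of 1.01 ± 0.19 (SD, n = 3) and a 2.01-fold rise (limma adjusted p = 0.000130). Like TPI1, GPM1 was lowest on array 1.

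Enolase converts phosphoglycerate to phosphoenolpyruvate, and ENO2 is known as the isozyme gene induced by glucose, whereas ENO1 is held to vary less with the carbon source. ENO1 gave 0.94, 0.81 and 0.57, a mean of 0.77 ± 0.19 (SD, n = 3) and a 1.71-fold rise (limma adjusted p = 0.000522). ENO2 gave 1.07, 0.92 and 0.70, a mean of 0.90 ± 0.18 (SD, n = 3) and a 1.86-fold rise (limma adjusted p = 0.000228). Both were highest on array 1 and lowest on array 3, and ENO1, the blot control, was above 90.1% of all genes in these ratios.

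Pyruvate kinase closes glycolysis and forms ATP. CDC19 encodes the main enzyme, which fructose bisphosphate activates, and PYK2 an isozyme that does not depend on that activator and is known to be repressed by glucose. CDC19 gave 0.54, 0.88 and 0.89, a mean of 0.77 ± 0.20 (SD, n = 3) and a 1.70-fold rise (limma adjusted p = 0.000589). PYK2 gave 0.29, 0.26 and 0.15, a mean of 0.23 ± 0.073 (SD, n = 3) and a ratio of 1.17 with a 95% interval of 1.01 to 1.36 (limma adjusted p = 0.0636). PYK2 was thus above 0 on every array, with the smallest spread of the 10 genes, without passing the threshold over all genes.

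Set in order of their means, the genes ran from TDH3 over PGK1, TPI1, GPM1, ENO2, ENO1, CDC19, TDH2 and TDH1 to PYK2. Most neighbours in this order could not be separated by their spread over arrays. PGK1 exceeded TPI1 by 0.087 ± 0.30, GPM1 exceeded ENO2 by 0.11 ± 0.33, ENO1 exceeded CDC19 by 0.0066 ± 0.37 and CDC19 exceeded TDH2 by 0.19 ± 0.35 (SD over arrays). Between TPI1 and GPM1 the difference was 0.074 ± 0.080, and between TDH2 and TDH1 it was 0.035 ± 0.13. Steps larger than their SD over arrays were those from TDH3 to PGK1, which was small, from ENO2 to ENO1 and from TDH1 to PYK2 (0.31 ± 0.20); the paralogues among them were tested as follows.

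Whether paralogues of 1 step changed alike was examined in 5 pairs. Within the dehydrogenases, TDH3 stood apart from both paralogues, and no difference between TDH1 and TDH2 passed the test. TDH1 minus TDH3 was -0.55, -0.64 and -0.72 on arrays 1, 2 and 3, a mean of -0.64 ± 0.086 (SD, n = 3), so that the fold of TDH3 was 1.56 times the fold of TDH1 (limma adjusted p = 0.000172). TDH2 minus TDH3 was -0.51, -0.74 and -0.56, a mean of -0.60 ± 0.12 (SD, n = 3), and the fold of TDH3 was 1.52 times that of TDH2 (limma adjusted p = 0.000379). TDH1 minus TDH2 was -0.040, 0.099 and -0.16, with no common sign and a mean of -0.035 ± 0.13 (limma adjusted p = 0.812). These p-values come from subtracting the ratio of the second gene from every gene on each array, whereby 91.4% of all genes were lower than TDH3; the calls thus place TDH1 and TDH2 with the large majority of genes.

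For the differences from TDH3, that fit pooled the spread of differences which all share the error of TDH3. It took this spread as the same for every gene. An alternative, added later with the values known, took the prior spread from the fit over single genes. Its p-values and intervals were calculated apart from the limma fit, with the prior variance doubled for a difference between genes. The doubling takes the errors of both genes as independent. By this moderated test the adjusted p was 0.00147 for TDH1 minus TDH3 (95% interval -0.94 to -0.34). It was 0.00221 for TDH2 minus TDH3 (-0.91 to -0.30) and 0.823 for TDH1 minus TDH2 (-0.34 to 0.27). The last interval leaves room for a difference in either direction. An exact two-sided sign-flip permutation test over 3 arrays cannot give less than 0.25, the value it gave for both differences from TDH3.

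The enolase genes differed little. ENO1 minus ENO2 was -0.13, -0.11 and -0.13, a mean of -0.12 ± 0.014 (SD, n = 3), so ENO2 was higher on 3 of 3 arrays by nearly the same amount. The difference did not pass the test over all genes (limma adjusted p = 0.366), and with the prior from single genes its 95% interval ran from -0.42 to 0.17. Both draw on the spread of other genes, so neither measures the spread of this pair alone. In the pyruvate kinases, PYK2 minus CDC19 was -0.25, -0.62 and -0.74, a mean of -0.53 ± 0.25 (SD, n = 3). The fold of CDC19 was 1.45 times the fold of PYK2 (limma adjusted p = 0.00869). By the moderated test with the prior from single genes, the adjusted p was 0.00928. CDC19 was higher on 3 of 3 arrays, but the call was lost without replicate 2 (-0.49, adjusted p = 0.0806), without replicate 3 (-0.43, adjusted p = 0.0779) and against a fold of 1.2 (adjusted p = 0.0688). Of all genes, 79.1% were lower than CDC19 in the same fit, and 78.9% with the prior from single genes.

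**Figure D2:**
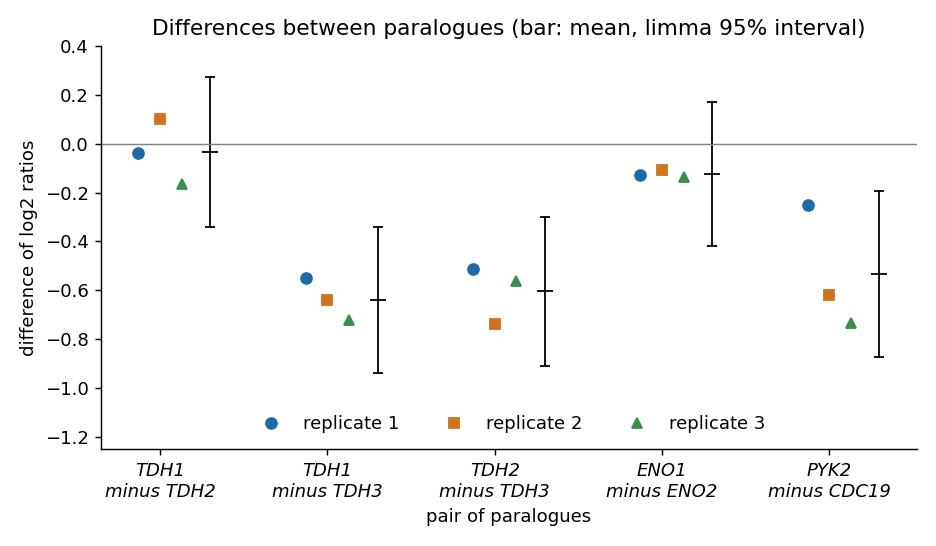
Difference in log2 ratio between paralogues, first minus second, for 5 pairs. Points are the 3 arrays and bars the mean with the 95% interval of the moderated test using the prior from single genes. This interval was calculated apart from the limma fit, although the title of the figure names limma. The intervals of TDH1 minus TDH3, TDH2 minus TDH3 and PYK2 minus CDC19 lie below 0, and those of TDH1 minus TDH2 and ENO1 minus ENO2 include 0.

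Each of the 10 genes had 7 spots, and all 210 values of these spots over the arrays were above 0. TDH3 was separated from its paralogues spot by spot, since its lowest spot exceeded the highest TDH1 spot by 0.36, 0.34 and 0.28 and the highest TDH2 spot by 0.31, 0.37 and 0.12 on arrays 1, 2 and 3. TDH1 and TDH2 spots overlapped on every array, and so did ENO1 and ENO2 spots. The lowest CDC19 spot was 0.025 below the highest PYK2 spot on array 1 (-0.025) and above it by 0.18 and 0.44 on arrays 2 and 3. Spots of a gene are repeated measurements of 1 labelled sample and not replicates of the condition. The paralogues are very similar in sequence and the sequences of the spots were not analysed here, so a spot may have measured more than 1 paralogue, and how far it did was not tested.

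**Figure D3:**
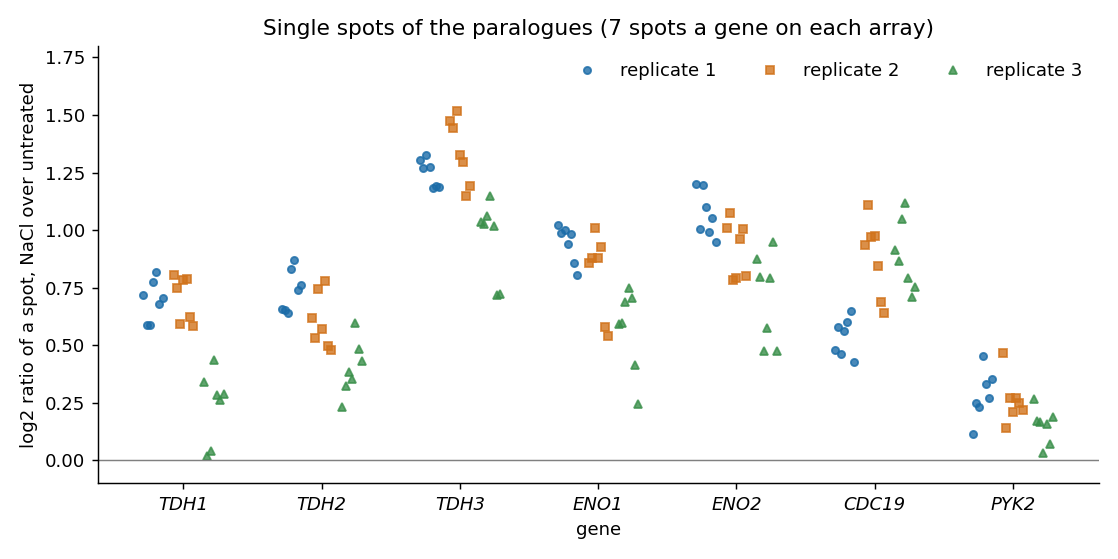
Log2 ratio of every spot of the dehydrogenase, enolase and pyruvate kinase genes on each of the 3 arrays, with 7 spots per gene. TDH3 spots lie above all TDH1 and TDH2 spots on every array, whereas ENO1 and ENO2 spots overlap.

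On arrays 2 and 3, some spots of these genes lay lower than the others. The 15 spots of the 10 genes with a number above 36000 in the table lay -0.043, -0.14 and -0.10 from the mean of their gene on arrays 1, 2 and 3, with 10, 15 and 11 of the 15 below it. All spots of named genes with such numbers lay 0.032, -0.0054 and -0.037 from theirs. Without these spots no call among the 10 genes changed.

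The genes also varied among themselves over the cultures, a pattern that was noticed after the values were seen. TPI1, GPM1 and CDC19 were lowest on array 1, with array 3 above array 1 by 0.29, 0.26 and 0.35. The other 7 genes were lowest on array 3, and array 3 minus array 1 ran from -0.46 for TDH1 to -0.14 for PYK2, with TDH3 and PGK1 both at -0.29. None was lowest on array 2. For all genes, 41.6% were lowest on array 1, 21.0% on array 2 and 37.3% on array 3, and array 3 minus array 1 lay between -0.65 and 0.62 in the central 90% of genes, so these shifts were of a common size. Of the 10 genes, 9 had an SD over arrays above the median SD of all genes (0.16).

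**Figure D4:**
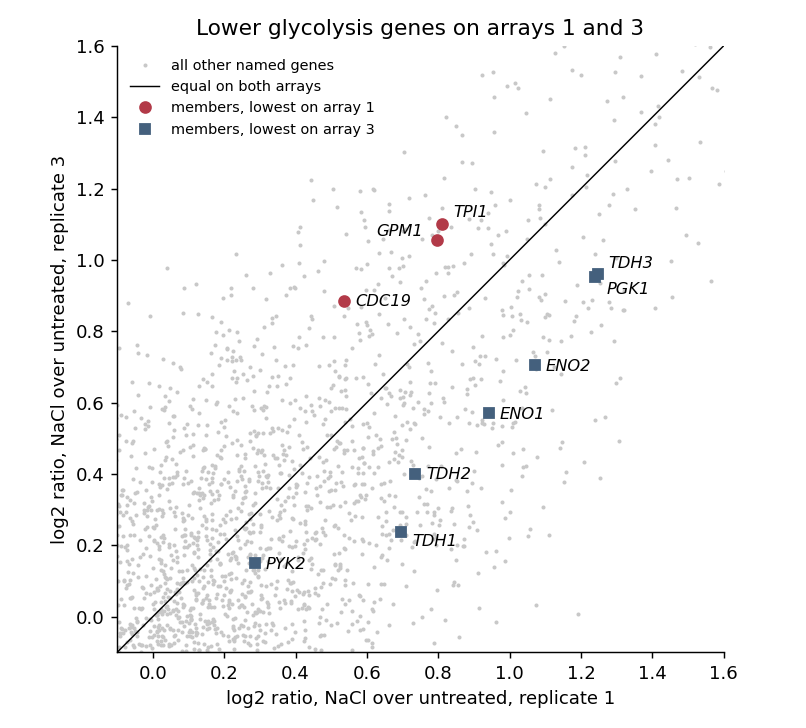
Log2 ratio of NaCl over untreated cells on array 1 (horizontal) and array 3 (vertical) for the 10 lower glycolysis genes and all other named genes within the range shown; the line marks equal values. TPI1, GPM1 and CDC19 lie above the line and the other 7 genes below it.

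Genes with the most similar values were sought by Euclidean distance over the 3 arrays. FUN19 (distance 0.091), MUD1 (0.12) and RPP0 (0.13), which encodes a ribosomal stalk protein, were nearest to TDH3 outside the pathway. LAC1 (0.021), DAL1 (0.031) and RPS26B (0.048) were nearest to PYK2. For TPI1, examined after the values were seen, the nearest were FBA1 (0.058) and HXK2 (0.082) of upper glycolysis and EDC1 (0.12). None of the 3 genes nearest to each of the other 9 genes belonged to upper glycolysis.

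The upper pathway, which prepares the hexose for cleavage, rose in all 7 of 7 genes, where 26.9% of all genes rose, and over a wider range; against a fold of 1.2, 5 of the 7 passed, without PFK1 (limma treat, adjusted p = 0.123) and PFK2 (0.489). HXK1 and GLK1, which encode hexose-phosphorylating enzymes known to be low on abundant glucose, rose to 3.32 ± 0.46 (SD, n = 3; 9.99-fold; limma adjusted p = 1.98e-06) and 3.15 ± 0.20 (SD, n = 3; 8.85-fold). Their values exceeded that of TDH3, the highest gene of the lower pathway, on every array. The mean excess was 2.14 for HXK1 (moderated test with the prior from single genes, adjusted p = 4.11e-05) and 1.96 for GLK1 (adjusted p = 2.01e-05). In this comparison 3.37% of all genes were higher than TDH3 and 91% lower. HXK2, the hexokinase of growth on glucose, and FBA1, the aldolase whose products enter the lower pathway, rose by 1.12 and 1.11, within the range of TPI1 and TDH3. The glucose phosphate isomerase gene PGI1 rose by 0.81. The phosphofructokinase subunit genes PFK1 and PFK2 rose least, by 0.46 and 0.35, and both were lower than TDH3 (adjusted p = 0.00198 and 0.000382); the call of PFK2 itself (adjusted p = 0.0348) was lost without replicate 1 (0.0857) or replicate 2 (0.188). In the lower pathway, compared with TDH3 in the same way, ENO1 (-0.41, adjusted p = 0.0157), CDC19 (-0.42, 0.0320) and PYK2 (-0.95, 0.000172) were lower beside TDH1 and TDH2, whereas PGK1, TPI1, GPM1 and ENO2 were not called. TDH3 was taken as the reference after its value was seen. It had the highest mean of the lower pathway, so the sign of each mean difference there was fixed beforehand. The calls of lower genes place them only with the 91% of all genes that were lower than TDH3.

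From pyruvate to ethanol, 5 of 8 genes rose, 0 fell and 3 were not called, beside 26.9% and 27.9% of all genes that rose and fell. PDC6, a minor pyruvate decarboxylase gene, rose 2.30-fold (1.11, 1.27 and 1.23 on arrays 1, 2 and 3), and the main alcohol dehydrogenase gene ADH1 rose by 0.78 (1.71-fold), close to ENO1 and CDC19. The main decarboxylase gene PDC1 and its paralogue PDC5 rose by 0.52 and 0.44. The mitochondrial alcohol dehydrogenase gene ADH3 rose by 0.29, which did not pass with replicate 2 (adjusted p = 0.351) or replicate 3 (0.142) left out, and ADH4 was at -0.12 (limma adjusted p = 0.310).

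**Figure D5:**
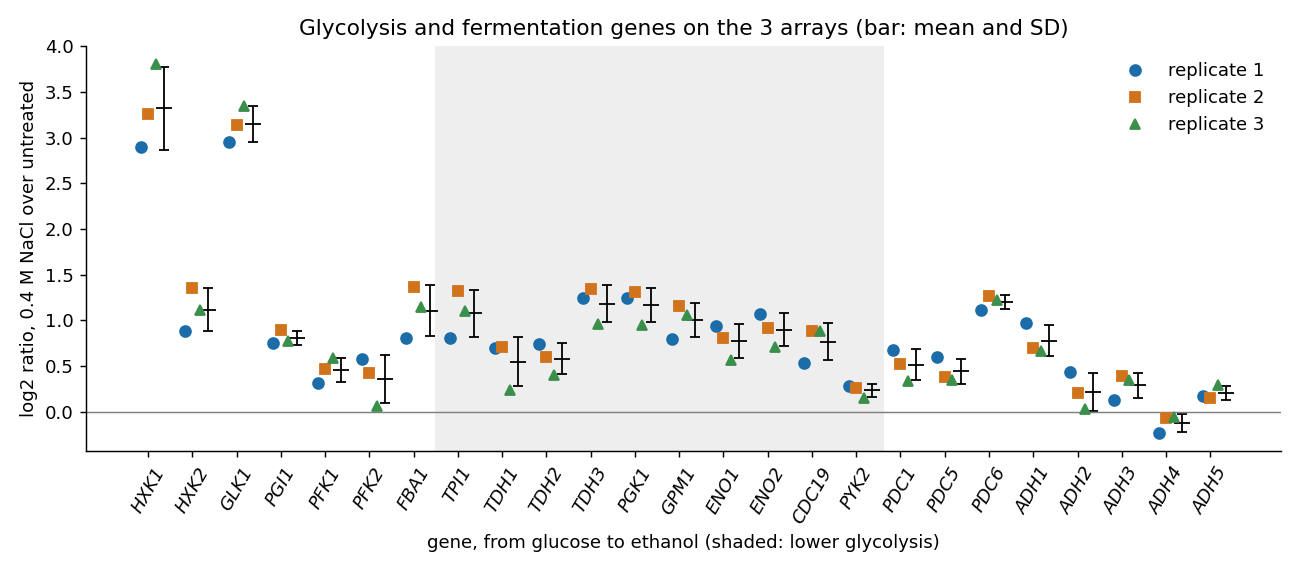
Log2 ratio of NaCl over untreated cells for genes from glucose phosphorylation to ethanol, in pathway order; points are the 3 arrays and bars the mean with SD (n = 3). HXK1 and GLK1 stand above all other genes shown, at 3.32 and 3.15, and ADH4 has a mean below 0.

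Side branches of the triose phosphates held larger changes than any gene of glycolysis listed here. Of 8 genes in these branches, 6 rose, 0 fell and 2 were not called, where 26.9% of all genes rose and 27.9% fell. GPP2 and GPD1, which make glycerol from dihydroxyacetone phosphate, rose by 4.28 (19.4-fold) and 4.18 (18.2-fold), whereas GPD2, the paralogue of GPD1 known for its role without oxygen, was at 0.32, -0.060 and -0.26 (limma adjusted p = 0.998). GPP1, the paralogue of GPP2, rose by 1.48, GLO1, which detoxifies the methylglyoxal that triose phosphates give off, by 1.44, and the dihydroxyacetone kinase gene DAK1 by 1.21. GLO2 rose by 0.35, which did not pass with replicate 2 (adjusted p = 0.0753) or replicate 3 (0.0577) left out.

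In the branches from phosphoglycerate and among the related mutases, 2 of 6 genes rose, 1 fell and 3 were not called, beside 26.9% and 27.9% of all genes that rose and fell. SER3, which encodes an enzyme of the first step of serine synthesis from phosphoglycerate, rose by 1.29. Its paralogue SER33 was not called, at -0.33, 0.026 and 0.28 on arrays 1, 2 and 3 (limma adjusted p = 0.951). SER1 (0.17, limma adjusted p = 0.320) and GPM3 (0.010, 0.933) were not called either. SER2, which encodes the last enzyme of serine synthesis, the phosphoserine phosphatase, fell by 1.34. GPM2, a paralogue of GPM1 without a clear mutase role, rose by 0.93, near GPM1 itself.

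Among genes of the reverse direction and of pyruvate carboxylation, 2 of 5 rose, 2 fell and 1 was not called. Of all genes, 26.9% rose and 27.9% fell, so calls in both directions were not particular to this list. FBP1, the fructose bisphosphatase gene of gluconeogenesis, rose by 0.43. PCK1, also of gluconeogenesis, was not called, at -0.41, -0.12 and 0.049 on arrays 1, 2 and 3 (limma adjusted p = 0.254). The pyruvate carboxylase paralogues parted, with PYC1 at 0.38 (rose) and PYC2 at -0.32 (fell). Without replicate 2 the calls of FBP1 (adjusted p = 0.0608) and PYC2 (0.25) were lost, and that of PYC2 also without replicate 3 (0.151). MAE1, the gene of the mitochondrial malic enzyme that forms pyruvate, fell by 1.43.

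Among 9 regulators of glycolysis, 3 rose, 1 fell and 5 were not called, a share of risen genes close to the 26.9% of all genes. Those that rose encode enzymes that make or break the fructose bisphosphate isomer known to activate phosphofructokinase: FBP26 rose by 1.87, PFK26 by 1.57 and PFK27 by 0.64. Of the transcription factor genes known for glycolytic promoters, GCR1 was at -0.18 (limma adjusted p = 0.128), RAP1 at 0.04 (0.736) and TYE7 at 0.17 (0.163), none of which passed the test, while ABF1 fell by 0.59. Over the 48 genes of all these lists, each counted once, 30 rose, 4 fell and 14 were not called, where 26.9% of all genes rose and 27.9% fell. This total includes the textbook osmostress genes, which were listed as known stress genes and of which all 7 rose. It is therefore no measure of the genes around glycolysis alone.

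The genes that lie directly beside the 10 glycolysis genes in the R64 gene order were also listed. Of 20 such neighbours, 12 had named spots, and 3 of these rose, 3 fell and 6 were not called, with a median of 0.14; these shares are near those over all genes (26.9% rose and 27.9% fell). The widest contrast was at PYK2, whose neighbour PUT4, a proline permease gene, rose by 6.84 (115-fold; limma adjusted p = 4.34e-08) and whose other neighbour REV1 fell by 0.36. Beside TDH3, PDX1 rose by 0.54 and HIP1 fell by 0.56, and beside GPM1, the gene of a subunit of the signal recognition particle receptor fell by 0.88. CYC3, which neighbours CDC19, rose by 0.89. The neighbours were listed by position alone, and no test was made of whether pairs move together.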

How the data were processed

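Each of 3 two-colour arrays held both conditions of 1 culture. The authors deposited 1 normalized log2 ratio per spot and array, for which the submitters' processing notes name limma; the sources used here give no details of background correction or normalization. Log base and direction, not stated with the values, were settled on 359 genes of the study's osmoresponsive table outside the lists used here: each was positive on all arrays, with a lowest mean of 0.72, near the log2 of the fold at which the study chose them (0.81). The labels and methods give 15 minutes of stress, although the paper also states a shorter time.

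The platform annotation gave a gene to 63.1% of spots, and of 4073 symbols 3940 matched a current R64 name, 129 a synonym and 4 were kept. Spots of a gene were averaged. limma 3.58.1 (R 4.3.3) fitted an intercept per gene with empirical Bayes, two-sided, with Benjamini-Hochberg adjustment over 4069 genes at 0.05; rose and fell mean past this threshold. Paralogues were compared after subtracting the second from every gene on each array. The fit per gene was run on simulated data. For the comparisons with a second gene, only the arithmetic of the differences was checked, which holds for any data. Their p-values and intervals were not checked. Members and lists were chosen with earlier results of these data known. Named genes are all members, genes of the lists, the 3 genes nearest to the highest and to the lowest member and, chosen after values were seen, genome neighbours and the genes nearest to TPI1. Alternatives were centred arrays, scaled arrays, the median of spots, each replicate left out, robust empirical Bayes, a threshold of 0.01 and a fold of 1.2; leaving out spots numbered above 36000 and a prior from single genes were added after the values were seen.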

Additional observations from a re-analysis of the deposited data

How the results depend on the processing

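Under each alternative run on single genes, including each replicate left out, the same 9 genes of lower glycolysis rose, except that TDH1 lost its call against a fold of 1.2; 0 fell, and their median was 0.82 to 0.93 with a replicate left out. PYK2 passed under none. Against a fold of 1.2 (limma treat), 5 genes of upper glycolysis and 2 genes from pyruvate to ethanol rose. In the list of gluconeogenesis and pyruvate carboxylation, 0 rose and 1, the malic enzyme gene MAE1, fell by that test. It also gave 0 regulators that fell, with 620 of all genes risen and 560 fallen. PYK2 minus CDC19 was -0.53 with a limma treat adjusted p of 0.0688. At 0.01, 1 gene of the list of gluconeogenesis and pyruvate carboxylation rose (FBP1) and 1 fell (MAE1). With a replicate left out, 777 to 1282 of all genes rose and 695 to 1340 fell (695 without replicate 2). Of the same list, 1 to 2 genes then rose and 1 to 2 fell. In these runs 1 to 2 regulators fell, and PYK2 minus CDC19 ran from -0.68 to -0.43. By the exact sign-flip test, TDH1 minus TDH3 (-0.64), TDH2 minus TDH3 (-0.60) and PYK2 minus CDC19 (-0.53) had p = 0.25, the smallest it can give. TDH1 minus TDH2 turned to 0.015 with the median of spots and ran from -0.10 to 0.030 with a replicate left out (0.030 without replicate 3). Uncalled values near 0 also changed sign: RAP1 ran from -0.0077 (without replicate 2) to 0.065 with a replicate left out, and GPD2 from -0.16 to 0.13, and was also above 0 with arrays centred (0.012) or scaled (0.011), with the median of spots (0.0060) and without replicate 2 (0.030). The causes were not tested.

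Both conditions of a culture share 1 array, so the fit over ratios is already paired by culture and no further block was fitted. Counts of promoter motifs were planned and not run. Spot intensities were not analysed here, so dim or saturated spots could not be followed.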
